A study of Mus musculus with 2 samples.

Results

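Genes for making and modifying fatty acids, 10 in all, were followed in the back skin of mice: fatty acid synthase (Fasn), 6 elongases (Elovl1, Elovl3, Elovl4, Elovl5, Elovl6 and Elovl7) and 3 desaturases (Scd1, Scd3 and Fads2). They were chosen by gene symbol, with earlier results of these data known, and are 10 of the 12393 genes that could be named on the array and 10 of the 8894 that were measured. They are read by 19 of the 22690 probe sets. One group carried a transgene for a constitutively active form of AhR, the aryl hydrocarbon receptor, expressed in keratinocytes, and the other was its wild-type littermates without the transgene. Both groups were 10 days old, and strain and sex are not given in the labels. The transgenic sample is titled K14Ahr, and the labels do not spell out the promoter. Total RNA of whole back skin was measured on 2 arrays, 1 for each genotype, and whether an array holds a single animal or a pool is not stated. AhR is a transcription factor that is normally switched on by dioxins and related aromatic compounds, and the comparison asks how transcripts of skin differ when it is active in the epidermis without a ligand. A single array for each genotype gives no replicate error and allows no test, so every value below describes these 2 arrays.

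Fatty acid synthase builds palmitate, a saturated chain. Elongases of the Elovl family lengthen fatty acid chains in the endoplasmic reticulum, each with its own preference for chain length and saturation, and desaturases insert double bonds. Skin uses the products in several places: the epidermis joins very long chains to ceramides for its water barrier, sebaceous glands secrete wax esters and triglycerides rich in monounsaturated chains, and dermal fat stores triglycerides. Whole skin holds all of these, so a lower signal cannot tell fewer cells of a type from less RNA per cell.

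The 10 genes did not move as 1 group. Elovl6, Scd3, Elovl5 and Scd1 were each more than 2-fold lower on the transgenic array, with log2 ratios of transgenic over wild-type signal of -1.39, -1.38, -1.12 and -1.10. Fasn (-0.50), Fads2 (-0.37), Elovl4 (-0.36) and Elovl3 (-0.30) were lower by less, Elovl7 read nearly alike (0.07), and Elovl1 was higher (0.96). A 2-fold difference in either direction was used as the limit. Among all 8894 measured genes, 97 were at least 2-fold lower, a background of 1.09%, and 202 were at least 2-fold higher, a background of 2.27%. Of the 10 genes, 4 were lower and none was higher by that much, and since the genes were chosen with this comparison in view, nothing is read from that count. Their median log2 ratio was -0.43, beside -0.05 over all measured genes.

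A technical yardstick comes from genes read by more than 1 probe set. Over 2535 genes whose 2 brightest probe sets each exceeded the floor in both genotypes, the log2 ratios of the pair differed with an SD of 0.36, and 95% of the differences were at most 0.735. The floor, a signal of 34.7, is the level to which dimmer values were raised. This spread measures disagreement between probe sets on the same RNA and says nothing of the variation between animals. In the order of the 10 log2 ratios, the widest steps lay between Elovl7 and Elovl1 (0.89) and between Scd1 and Fasn (0.60). The step of 0.89 exceeded 0.735, whereas that of 0.60 lay within the range that holds 95% of the differences between probe sets. The step from Elovl3 to Elovl7 was 0.37, close to the SD between probe sets, and the other 6 steps were 0.26 or less, inside that SD.

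**Figure D1:**
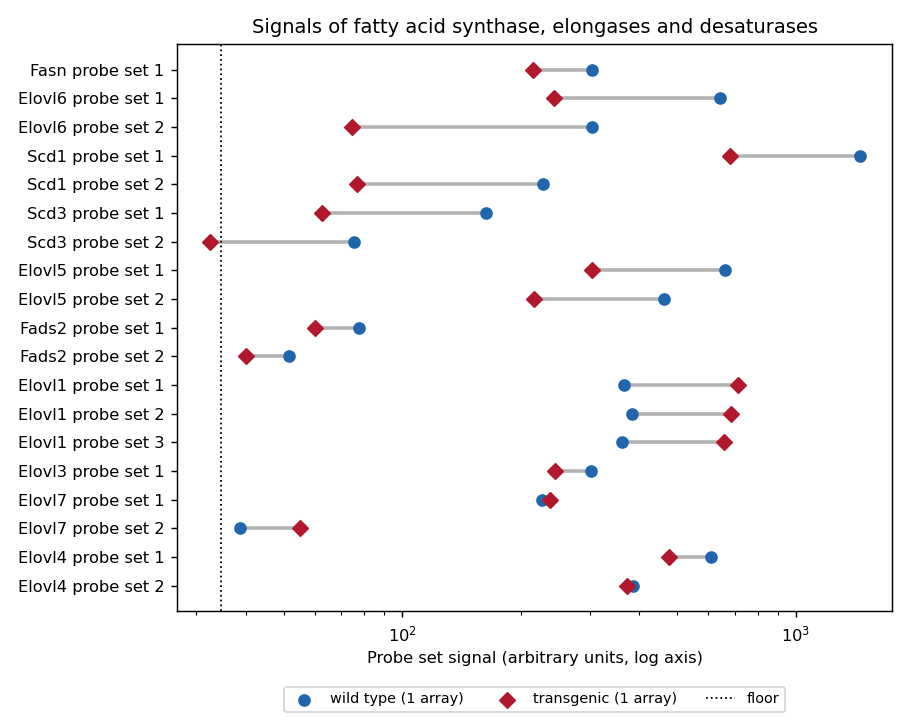
Deposited signal of each of the 19 probe sets (rows, brightest probe set of a gene first) on the wild-type array (circles) and the transgenic array (diamonds), on a log axis in arbitrary units, with 1 array per group and no error bars. The transgenic signal lies to the left for both probe sets of Elovl6, Scd1, Scd3 and Elovl5 and to the right for all 3 probe sets of Elovl1; the dotted line is the floor of 34.7.

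The stretches before the transcription start of the genes at either end are shown because they are the regulatory sequence nearest to the elongase that was higher, Elovl1, and to the elongases that were more than 2-fold lower, Elovl6 and Elovl5. The sequences are from RefSeq on build GRCm38.p6, and each line runs 5′ to 3′ on the gene's own strand through 250 bases before the start and the first transcribed base. Elovl6 covers chr3:129532136-129532386 on the plus strand, Elovl5 chr9:77917115-77917365 on the plus strand, and Elovl1 has 2 annotated starts, with windows at chr4:118427843-118428093 on the plus strand and chr4:118429451-118429701 on the plus strand. Capitals mark GCGTG, the core letters to which AhR and its partner ARNT bind, or its reverse complement CACGC.
Elovl6: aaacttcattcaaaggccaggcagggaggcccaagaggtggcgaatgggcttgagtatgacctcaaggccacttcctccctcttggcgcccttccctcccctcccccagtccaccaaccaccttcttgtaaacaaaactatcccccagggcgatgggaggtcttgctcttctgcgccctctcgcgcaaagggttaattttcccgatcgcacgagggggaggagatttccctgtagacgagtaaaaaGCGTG
Elovl5: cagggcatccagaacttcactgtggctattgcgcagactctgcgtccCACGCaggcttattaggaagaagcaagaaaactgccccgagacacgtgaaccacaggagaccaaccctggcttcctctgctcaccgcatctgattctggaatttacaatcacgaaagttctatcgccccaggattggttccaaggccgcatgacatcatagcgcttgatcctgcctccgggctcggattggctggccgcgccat
Elovl1 upstream start: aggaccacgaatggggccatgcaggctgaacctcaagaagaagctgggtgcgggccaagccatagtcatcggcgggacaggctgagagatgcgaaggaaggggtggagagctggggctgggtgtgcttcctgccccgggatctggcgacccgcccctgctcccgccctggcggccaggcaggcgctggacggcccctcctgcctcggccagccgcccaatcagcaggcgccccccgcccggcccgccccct
Elovl1 downstream start: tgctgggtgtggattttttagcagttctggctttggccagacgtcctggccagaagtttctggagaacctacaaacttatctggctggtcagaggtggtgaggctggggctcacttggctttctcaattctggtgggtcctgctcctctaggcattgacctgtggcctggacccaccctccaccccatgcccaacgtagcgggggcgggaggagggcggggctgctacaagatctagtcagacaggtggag
The Elovl6 match begins 4 bases before the start and ends on the first transcribed base. The Elovl5 match begins 203 bases before the start and lies on the opposite strand, and a further Elovl5 match lies past the printed stretch. Neither Elovl1 window holds these letters.

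Of the 10 genes, 8 had a promoter in the RefSeq table, in windows of 300 bases that reach 50 bases past the start; Elovl3 and Scd1 had no entry. The letters GCGTG stood on either strand in 4 of the 8, Elovl5, Elovl6, Fasn and Scd3, and were not found in Elovl1, Elovl4, Elovl7 or Fads2. In the whole table they stood in 35.2% of 27025 genes, and in 32.4% of 32851 windows. The short core is thus common, and a match is neither evidence of binding nor a cause. The sterol regulatory element TCACNCCAC (1.44% of all genes) and the spaced direct repeat bound by LXR with RXR (0.0148% of all genes) were found in none of the 8 windows, which says only that those letters are not there. Both strands were searched.

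Fasn, which makes palmitate, read 214.8 in transgenic and 303.9 in wild-type skin with its 1 probe set. That is 1.41-fold lower on the transgenic array, a log2 ratio of -0.50. By this ratio 9.17% of the measured genes were lower still, so Fasn stood toward the low end of the array but short of the 2-fold limit.

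Elovl6 lengthens palmitate to stearate and so acts on the balance between the main saturated chains of a cell. Its brighter probe set read 243.8 against 641.1 in wild type, 2.63-fold lower. The other read 74.4 against 303.6, which is 4.08-fold lower. Both probe sets fell on the same side of the limit, and their log2 ratios of -1.39 and -2.03 differed by 0.63, within the range that holds 95% of such differences. By its brighter probe set Elovl6 ranked 21 from the lowest of the 8894 measured genes, the lowest of the 10 genes.

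Scd1 is the main desaturase that turns saturated into monounsaturated chains in skin, and mice without it have atrophic sebaceous glands. Its brighter probe set read 679.3 against 1456.4, 2.14-fold lower on the transgenic array. The dimmer one read 76.8 against 228.2, 2.97-fold lower. Scd3, a related desaturase known from sebocytes, read 62.6 against 163.3 with its brighter probe set, 2.61-fold lower. The dimmer Scd3 probe set read 32.4 against 75.3; the transgenic value lay below the floor, so the difference was at least 2.17-fold. The ranks from the lowest were 70 for Scd1 and 23 for Scd3.

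Scd2, another desaturase of this type and known from brain and neonatal skin, read 569.3 against 1016.5 with its brightest probe set, a log2 ratio of -0.84. Its other probe sets gave -0.35 and -0.49, so it was lower by all 3 but stayed under the limit. In the gene table of GRCm38.p6 the genes lie side by side on chromosome 19 in the order Scd3, Scd2, Scd4 and Scd1, with no other coding gene between them. The 3 read here were lower on the transgenic array. The Scd genes are close paralogs, and how far their probe sets bind each other's transcripts was not tested.

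Elovl5 lengthens polyunsaturated chains and also palmitoleate. It read 304.3 against 662.6 with its brighter probe set and 216.6 against 463.4 with the other, 2.18-fold and 2.14-fold lower. These log2 ratios (-1.12 and -1.10) differed by 0.03, and the gene ranked 62 from the lowest. Fads2, the desaturase that opens the polyunsaturated pathway in which Elovl5 acts, was dim on both arrays. It read 60.1 against 77.6 and, with the dimmer probe set, 40 against 51.5, 1.29-fold lower by both probe sets (log2 -0.37 and -0.36). The elongase and the desaturase of this route thus read differently, and 15.9% of the measured genes had a lower ratio than Fads2. Fads1 and Fads3 flank Fads2 on chromosome 19 with no coding gene between. Fads1 gave -0.19, and Fads3 gave -0.12 with its brighter probe set and -0.42 with its dimmer one.

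Elovl1, which makes the very long saturated and monounsaturated chains of sphingolipids and is needed for the skin barrier, was higher on the transgenic array. Its 3 probe sets read 711.7 against 365.7, 685.7 against 383.0 and 658.6 against 361.3. The folds were 1.95, 1.79 and 1.82, all short of the 2-fold limit. By the brightest, Elovl1 ranked 226 from the highest, and 6.8% of the measured genes were at least 1.5-fold higher. All 3 probe sets of Elovl1 carry a letter suffix in their names, which marks possible binding of several transcripts, so no unsuffixed probe set stood beside them. Elovl7, another elongase of saturated chains, read 236.9 against 226.3 and, with its dim second probe set, 55.1 against 38.6. The 2 log2 ratios, 0.07 and 0.51, lay on the same side of 0 but differed by 0.45.

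Elovl3 and Elovl4 complete the elongases. Elovl3, known from sebaceous glands, hair follicles and brown fat, read 245.2 against 302.3 with its 1 probe set, 1.23-fold lower (log2 -0.30). Elovl4, which makes the ultra-long chains that epidermal acylceramides carry, read 475.1 against 610.6 and 372.8 against 386.4. Its log2 ratios were -0.36 and -0.05, the smaller of them near the median of all genes. Both genes lay inside the bulk of the array: 20.9% and 16.4% of measured genes had lower ratios.

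**Figure D2:**
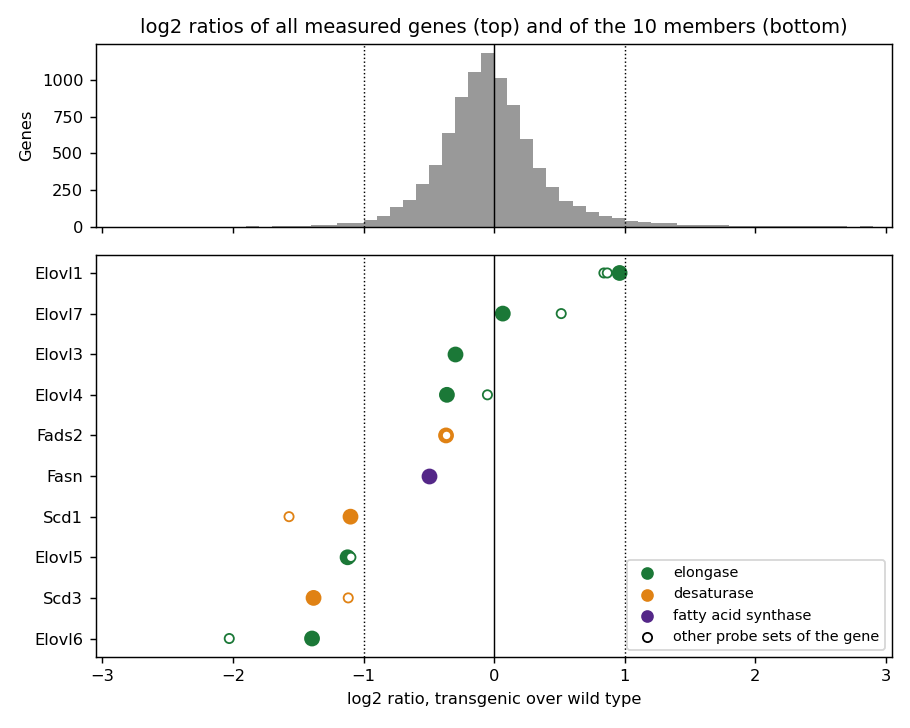
Histogram of log2 ratios (transgenic over wild type) of all measured genes in steps of 0.1 (top; 6 genes lie beyond the axis limit of 3) and the log2 ratio of each of the 10 genes (bottom), with the brightest probe set filled and the others open. All 8 probe sets of Elovl6, Scd3, Elovl5 and Scd1 lie left of the dotted line at -1, none of the other 11 does, and Elovl1 alone has all its probe sets near the line at 1.

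Set out by a rough division of chain length, Elovl5 and Elovl6, taken as elongases of long chains, had a median log2 ratio of -1.26. Elovl1, Elovl3, Elovl4 and Elovl7, taken as those of very long chains, had a median of -0.12 and ran from -0.36 to 0.96. This division was drawn with the values known and pairs the elongases past the limit. The place of Elovl5 in it is not fixed, and below it is set with Elovl4 instead. Grouped another way, Elovl1, Elovl3, Elovl6 and Elovl7, which act on saturated and monounsaturated chains, had a median of -0.12 and ran from -1.39 to 0.96. Elovl4 of ultra-long chains and Elovl5 of polyunsaturated chains together had a median of -0.74. All 6 elongases together had a median of -0.33, and the 3 desaturases with Fasn had one of -0.80. The difference between these medians, desaturases with Fasn minus elongases, was -0.47, and it hides the spread within the elongases. Between Elovl1 and Elovl6 alone the log2 ratios differed by 2.36, and the lowest probe set of Elovl1 stood 2.24 above the highest of Elovl6. These are the highest and the lowest of the 10 genes, so the size of the gap is a description. The 2 desaturases of saturated chains, Scd1 and Scd3, had a median of -1.24, beside -0.37 for Fads2.

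Other genes of the pathway were read in 7 lists. In 6 of these, none of the 35 measured genes was at least 2-fold higher or lower. They were other elongases and desaturases, precursor supply, the elongation cycle, lipogenic transcription factors, activation and transport, and oxidation of fatty acids. The remaining list, acylceramide assembly, had 1 such gene among 6 measured. The 6 lists are grouped because none of their genes passed the limit, so nothing is read from their count of 0. Over all measured genes 3.36% passed the limit in either direction. The other elongases and desaturases measured were the 3 already given, with a median of -0.19, and Elovl2 stayed under the floor (4.3 and 3.3). Precursor supply had a median of -0.26 over 6 genes. Its lowest members were Acss2, which makes acetyl-CoA from acetate (77.0 against 118.7, log2 -0.62), and Acaca, the carboxylase that makes malonyl-CoA for Fasn and the elongases (34.2 against 52.9, at most -0.61 since the transgenic value lay below the floor). Acly, the citrate lyase, read 389.0 against 402.0, a log2 ratio of -0.05. Oxsm, an enzyme of mitochondrial fatty acid synthesis, was the highest of the list at 0.09 or more.

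The elongases share 3 further enzyme steps, and the 6 genes for them had a median of -0.12. Hacd2, a dehydratase of the cycle, had a log2 ratio of -0.19, Hacd1 -0.15 and the reductase gene Hsd17b12 -0.07. Hacd4, a further dehydratase gene, was highest at 0.60 (81.7 against 53.8). By their brightest probe sets the 6 genes of the cycle's shared enzymes ran from -0.19 to 0.60, while the elongases ran from -1.39 to 0.96.

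Of the lipogenic transcription factors and their control, 6 genes were measured, with a median of -0.13. Scap, the escort protein of the sterol regulatory factors, was highest (238.6 against 125.5, log2 0.93), followed by Srebf2 (0.16), the factor of cholesterol genes. Mlxipl, the carbohydrate-responsive factor, was lowest (41.8 against 58.9, log2 -0.49), and Nr1h3, the gene of LXR alpha, was at most -0.32. Srebf1, the factor known for driving Fasn, Scd1 and Elovl6, read 222.2 against 224.4, a log2 ratio of -0.01; it is named outside the rule, after its value was seen. Its 1 probe set carries a letter suffix. Pparg, Ppara and Ppard stayed under the floor on each array.

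Fatty acid activation and transport had a median of 0.00 (-0.0007 before rounding) over 6 genes. Slc27a4, a fatty acid transporter needed for the skin barrier, was lowest (242.7 against 352.8, log2 -0.54), and Acsbg1, an acyl-CoA synthetase, was highest (0.45). Fabp5, the epidermal fatty acid binding protein, had a log2 ratio of 0.19. The 8 measured oxidation genes ran only from -0.10 (Hadhb) to 0.25 (Acadl), with a median of 0.04. Hadhb, a subunit of the mitochondrial trifunctional protein, gave -0.63 by its second probe set, so its probe sets differ by over the SD. In the list of acylceramide assembly, which takes up the products of Elovl1 and Elovl4, 1 of 6 measured genes passed the limit. It was Cers4, a ceramide synthase, at 2.02-fold lower (80.3 against 161.9), and its second probe set gave -1.68. Cers4 lay at the limit: the count of lower genes in this list was 0 with median, quantile or lowess centring and when a pseudocount of 16 replaced the floor. Aloxe3 (0.40) and Alox12b (at least 0.25), lipoxygenases that act on acylceramides, were the highest members, and the list's median was -0.04. Alox12b read 41.4 against 4.4, so its ratio rests on the floor, and under a floor at the 20th percentile or the pseudocount it was at least 2-fold higher.

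**Figure D3:**
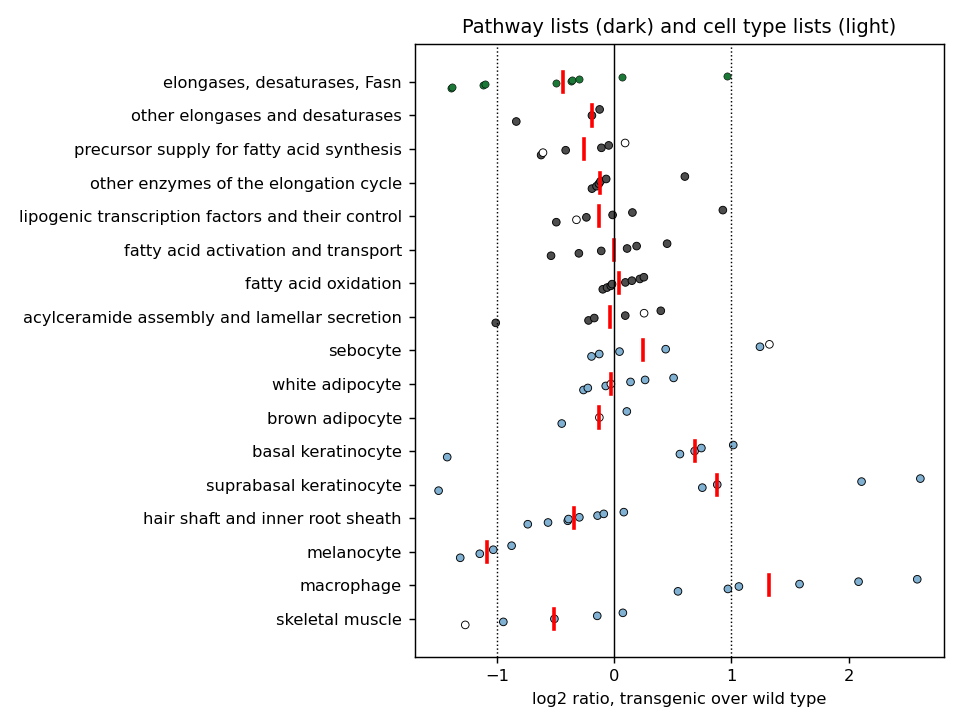
log2 ratio (transgenic over wild type) of each measured gene, 1 point per gene, for the 10 genes (top row), 7 pathway lists (dark) and 9 cell type lists (light), with open points where 1 array lay at the floor and red bars at the medians; dotted lines mark 2-fold. The 10 genes spread from -1.39 to 0.96, whereas the oxidation genes stay between -0.10 and 0.25, and the melanocyte and macrophage lists lie to opposite sides of 0.

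Markers of lipid-secreting and lipid-storing cells were read beside these genes. Of 10 sebocyte markers outside the 10 genes, 6 were measured, 2 of them at least 2-fold higher and none lower by that much. Their median was 0.24, and 0.13 with averaged probe sets. Awat1, Awat2, Far2 and Soat1, also on the list, had no probe set of their own in the annotation. The 6 therefore do not give the signal of sebocytes as a whole, and whether that differed was not tested. Krt79, a keratin of the upper follicle and sebaceous duct, read 2434.6 against 1028.0, and Mgst2, a glutathione transferase, 86.9 against 29.0, at least 2.50-fold higher. Under a floor at the 60th percentile Krt79 alone passed. The melanocortin receptor gene Mc5r (52.8 against 57.7) and Cidea, a lipid droplet gene (81.9 against 93.7), were lowest at -0.13 and -0.19. The summed signal of the 6 was 3605 on the transgenic and 2016.9 on the wild-type array, most of it from Krt79. Of 10 white adipocyte markers 7 were measured and none passed the limit. Their median was -0.03 and their summed signal 3285.4 against 3538.6, with Fabp4 lowest (-0.26) and Cidec highest (0.51). Adipoq, the adiponectin gene, named outside the rule as the defining adipocyte marker after its value was seen, read 540.2 against 568.2. Of 5 brown adipocyte markers 3 were measured, between -0.45 (Dio2) and 0.11 (Cox8b), and Ucp1 stayed under the floor (2.7 and 3.0).

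Markers of other cell types of the skin were read too, and some of them differed between the arrays. The labelled tissue showed its markers: 5 of 5 basal and 5 of 5 suprabasal keratinocyte markers were measured. Their medians were 0.69 and 0.88, with summed signals of 7036.2 against 5081 and 8692.8 against 3679.3. Among the basal markers 1 was at least 2-fold higher (Itgb4, 1.02) and 1 lower (Krt15, -1.43), and among the suprabasal ones 2 were higher (Krt1, 2.61, and Flg, 2.11) and 1 lower (Ivl, -1.50). All 6 macrophage markers were above 0, with 4 at least 2-fold higher (the complement genes C1qa, 2.59, C1qb, 2.09, and C1qc, 1.58, and the receptor gene Csf1r, 1.06), a median of 1.32 and a summed signal of 1603.8 against 607.5. Of 8 hair shaft and root sheath genes 7 lay below 0 and none passed the limit (median -0.34, summed signal 17808.8 against 20737). All 4 measured melanocyte markers were below 0, 3 of them at least 2-fold lower (the pigment enzyme genes Tyr, -1.31, Tyrp1, -1.15, and Dct, -1.03; median -1.09, summed signal 1103.2 against 2239.7). Of 5 skeletal muscle markers 1, Myh8, was lower by that much (median -0.51, summed signal 3218.8 against 3475.9). Under a floor at the 60th percentile Ivl and Myh8 no longer passed the limit, and with the pseudocount Itgb4 did not. Calls were also lost for Dct with median centring (-0.99), for Tyr without suffixed probe sets (-0.90) and for Csf1r with averaged probe sets (0.73). Calls were gained for Cd68, a macrophage marker, with median, quantile or lowess centring (1.01 to 1.05) and for Krt14 without suffixed probe sets (1.01). The part of these shifts in the values of the elongases and desaturases was not tested.

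**Figure D4:**
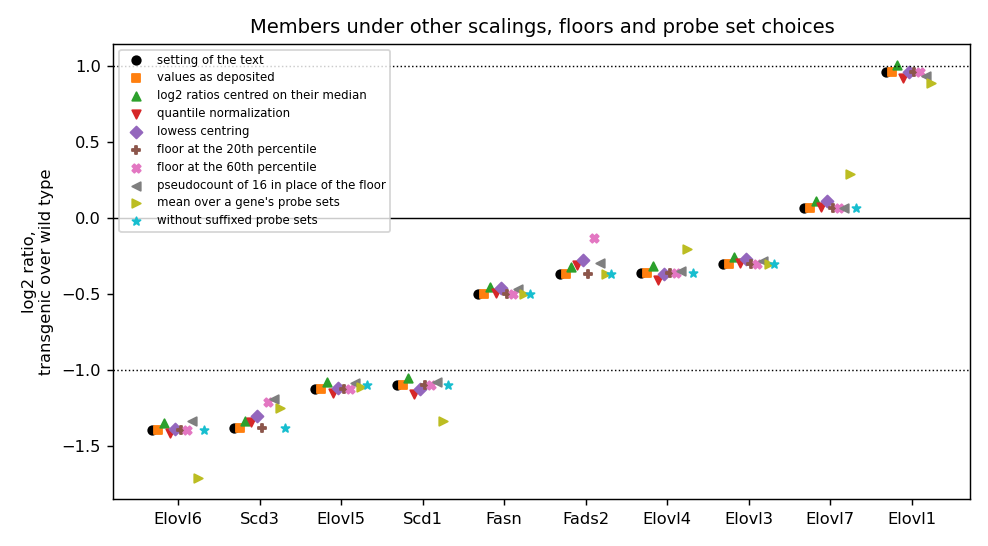
log2 ratio (transgenic over wild type, vertical axis) of each of the 10 genes in order of its value, under the setting of the text (black) and 9 other scalings, floors and choices of probe set; dotted lines mark 2-fold. Elovl6, Scd3, Elovl5 and Scd1 stay below -1 in each, and Elovl1, which has no value without suffixed probe sets, lies between 0.89 and 1.01.

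Across those settings Elovl6 ran from -1.71 to -1.34, Scd3 from -1.38 to -1.19, Elovl5 from -1.15 to -1.08 and Scd1 from -1.34 to -1.05. Fasn stayed between -0.50 and -0.45, Elovl3 between -0.30 and -0.26, and Elovl4 between -0.41 and -0.21. Fads2 moved from -0.37 to -0.13 under a floor at the 60th percentile, where its transgenic signal is raised to the floor. Elovl7 reached 0.29 when its probe sets were averaged.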

How the data were processed

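Biotin-labelled total RNA was read on 1-colour oligonucleotide arrays, per the labels. The deposited table holds a linear intensity for every probe set, none below 0. Their trimmed mean, without the highest and lowest 2%, was 100.03 on both arrays, so they had been scaled before deposit; the software and its detection calls are not given in the sources used here. Of 22690 probe sets, 64 were controls, 20380 had 1 gene in the platform annotation of 2016, 691 several and 1555 none. Only those with 1 gene were named, and symbols were updated through a gene table of GRCm38.p6, which lacked 29 of them.

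Signals were scaled to equal trimmed means, raised to a floor of 34.7, the 40th percentile over both arrays without controls, and put on the log2 scale. A gene stands for its brightest probe set and was measured when that exceeded the floor in either genotype. A ratio with 1 array at the floor is a bound. Genes were named by rule: the 10 genes, the highest and lowest 2 of each list (some left out) and those past 2-fold. Named outside it are Srebf1, Adipoq and genes whose calls changed with a setting. Genes under the floor and sebocyte markers without their own probe set are also outside the rule. The 10 genes, the 16 lists and the alternatives were chosen with earlier results of these data known. No test was possible with 1 array per group; having 2 arrays limits the precision. The calculation was tested on simulated data with changes larger than 2-fold, which says nothing of calls near that limit. Python 3.11.15, pandas 2.3.3, numpy 2.4.6 and statsmodels 0.14.6 (lowess, span 0.4) were used.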

Additional observations from a re-analysis of the deposited data

How the results depend on the processing

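The alternatives were the deposited values without scaling, median centring, quantile normalization, lowess centring, a lower floor (20th percentile) and a higher one (60th), a pseudocount of 16, averaged probe sets, no suffixed probe sets, and limits of 1.5-fold and 3-fold. A value was taken as moved when it shifted by at least the SD between probe sets (0.362), and a count when it changed by over 1.5 times. None of the 10 genes changed sign. The number at least 2-fold lower was 4 in all but 1 setting: at the 3-fold limit it was 0, a stricter limit by construction. The number at least 2-fold higher was 0, and 1 with median centring (Elovl1, 1.01) and at the 1.5-fold limit (Elovl1). The difference between desaturases with Fasn and elongases ran from -0.62 to -0.44. Of 585 values of single genes and of the other lists under the alternatives, 557 did not move by these measures and 28 did. Many of them could hardly move. The deposited values already had equal trimmed means, median centring shifts every ratio by the same small amount, and a changed floor does not reach bright genes. The 557 is therefore a description and no measure of how firm the values are. Over all genes the counts higher and lower were 202 and 97, but 393 and 257 under the lower floor and 123 and 45 under the higher one, with 10893 and 6352 genes measured. Dim genes such as Fads2 and the second probe sets of Scd3 and Elovl7 lie near the floor, which limits their ratios. No paired analysis was possible because each group holds 1 array.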
